A study of Mus musculus with 4 samples.

Results

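Arg1-high macrophages are lung cells that carried both the complement C1q transcripts of macrophages and the transcript of arginase 1. They were chosen by raw counts of unique molecular identifiers (UMIs, each one captured RNA molecule) in the single-cell libraries of mouse lungs bearing KP tumours. A member held at least 200 detected genes, at most 10% mitochondrial UMIs, at least 3 UMIs of C1qa, C1qb and C1qc together and at least 3 UMIs of Arg1. It held at most 1 UMI of Ace, Adgre4 and Treml4 (non-classical monocytes), at most 1 of Krt79, Ear1 and Fabp1 (alveolar macrophages), at most 1 of Cd3d, Cd3e and Cd3g (T cells) and 0 of Cd79a (B cells). These limits were met by 318 of the 23730 cells past the gene and mitochondrial limits. By library the members numbered 64 in KO anti-PD-1, 61 in KO IgG, 95 in WT anti-PD-1 and 98 in WT IgG.

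All mice were of the B6 strain and received KP lung tumour cells, from a mouse model of lung cancer, by injection into a vein, and the lung tumours were followed by MRI. In KO anti-PD-1 the tumour cells lacked Asf1a, which encodes a histone chaperone, and the mice were given anti-PD-1, an antibody that blocks an inhibitory receptor of T cells, at 200 µg per mouse 3 times a week for 1 week. In KO IgG the same knockout tumours were treated with an isotype control IgG. In WT anti-PD-1 and WT IgG the tumour cells had an intact Asf1a gene, with the same antibody or control IgG. The knockout is in the injected tumour cells, so the macrophages of every group are host cells with Asf1a intact. Perfused whole lungs were digested with collagenase D and DNase I and live cells were sorted by DAPI, so cells of tumour and surrounding lung were sampled together.

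Arginase 1 splits arginine into ornithine and urea, which feeds polyamine and proline synthesis and removes the substrate of nitric oxide synthase. In macrophages the gene is induced by interleukin-4 and interleukin-13, and in tumours also by lactate and by hypoxia acting through the factor HIF-1. Macrophages that express it are a hallmark of many mouse tumours and of wound repair, and the loss of arginine from their surroundings restrains T cells.

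Each group was 1 library, so differences between groups have no replicate check, and their 95% intervals cover counting error only. Comparisons between cell populations of the same libraries were tested over the 4 libraries. The label of a group is the only sign that its library came from separate animals, and nothing says how many mice were pooled. The libraries held 16078095 to 22506737 UMIs, and the median cell had 1355 UMIs in KO anti-PD-1, 1247 in KO IgG, 1905 in WT anti-PD-1 and 2061 in WT IgG. Asf1a, read in cells with epithelial transcripts and no C1q, stood at 6.86 CPM (counts per 1000000 UMIs; interval 3.29 to 12.6, 10 UMIs) in KO anti-PD-1 and 13.1 (8.91 to 18.6, 31 UMIs) in KO IgG. It stood at 24.0 (17.0 to 32.9, 38 UMIs) in WT anti-PD-1 and 25.2 (18 to 34.3, 40 UMIs) in WT IgG. In the members it was counted with 4, 7, 5 and 11 UMIs in the order KO anti-PD-1, KO IgG, WT anti-PD-1 and WT IgG, and 4 values that stand together below belong to the libraries in this order. No 2 libraries held a cell with the same profile of counts.

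Arg1 was plentiful in most members. The median member held 15 Arg1 UMIs in KO anti-PD-1, 14 in KO IgG, 15 in WT anti-PD-1 and 32 in WT IgG, and the highest held 94, 137, 147 and 142. The middle 50% of members spanned 7 to 26.75, 8 to 23, 7 to 38.5 and 14 to 68.75 UMIs. At least 10 UMIs were held by 231 of the 318 members. The members held 52.6% of all Arg1 UMIs of the cells in KO anti-PD-1, 38.3% in KO IgG, 70.2% in WT anti-PD-1 and 72.0% in WT IgG. Just inside the limit, 20 members held 3 Arg1 UMIs and 17 held 4, and just outside it, 35 macrophages held 2 and 66 held 1. Among all 1254 macrophages with C1q under the same exclusions, 835 held no Arg1 UMI, and these are called Arg1-zero macrophages below. The distribution thus had most macrophages at 0 and a long tail above the limit in every library. Cells with at least 2 Cd3 UMIs, which should lack Arg1, reached 3 Arg1 UMIs in 0.948%, 0.323%, 0.256% and 0.234% of cases, at median depths of 2190.5, 1897.5, 2254 and 2660 UMIs.

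**Figure D1:**
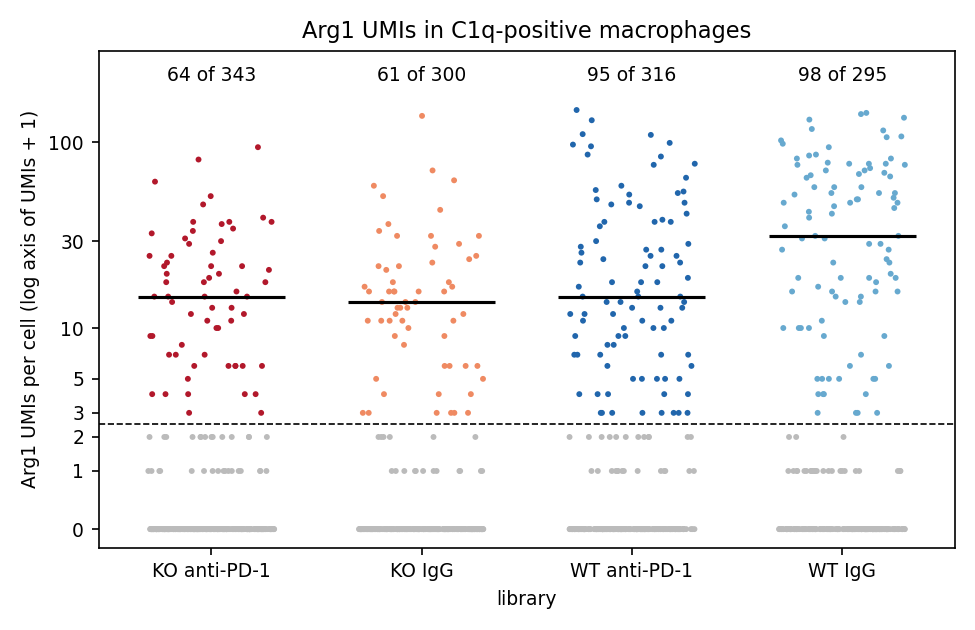
Arg1 UMIs (log axis, 1 added) in each macrophage with at least 3 C1q UMIs, by library; a point is a cell, the dashed line is the minimum of 3 and black lines are medians of the members. The numbers above are members of all such macrophages, 64 of 343 in KO anti-PD-1, 61 of 300 in KO IgG, 95 of 316 in WT anti-PD-1 and 98 of 295 in WT IgG.

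The members were macrophages by their other transcripts too. The median member held 27.5, 13, 50 and 53 C1q UMIs and 5481, 5505, 7697 and 9317 UMIs in all, with 1743.5, 1863, 2228 and 2375 detected genes. Csf1r, the receptor of the macrophage growth factor CSF-1, stood at 326, 338, 386 and 342 CPM in the members and 248, 255, 289 and 255 CPM in Arg1-zero macrophages (log2 fold change 0.42). Adgre1, which encodes F4/80, and Mertk, a receptor for dying cells, had log2 fold changes of 0.05 and −0.03 and did not pass the test. Lyz2 was lower in the members, at 6141, 16454, 10134 and 9678 CPM, against 18099, 24050, 23648 and 21868 CPM in Arg1-zero macrophages (−1.12), and so was the lysosomal protein gene Cd68 (−1.26). Of the 8 pan-macrophage genes outside the rule, 4 were higher and 2 lower. The data fit the name of the population, with lower Lyz2 and Cd68.

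Markers of other cell types were low in the members, with exceptions. The 13 neutrophil genes summed to 1394 CPM in KO anti-PD-1, 641 in KO IgG, 674 in WT anti-PD-1 and 603 in WT IgG, against 1071, 1146, 964 and 1073 in Arg1-zero macrophages. Tumour epithelial genes summed to 109, 108, 313 and 126 CPM in the members and 2431, 172, 246 and 580 CPM in Arg1-zero macrophages, and 5 of 6 tested were lower in the members. Alveolar macrophage genes summed to 47.3, 378, 44.6 and 101 CPM in the members and 508, 817, 483 and 600 in Arg1-zero macrophages, and all 5 that were tested were lower, the population limits having used 3 others of this list. T cell genes summed to 94.6, 75.7, 83.2 and 98.0 CPM in the members. Of 8 platelet genes, which Pf4 would otherwise point to, 8, 8, 6 and 7 were at 0 in the members. Of the fibroblast list, 3 measured genes held 97 UMIs in WT IgG members and 0 in KO IgG members. In WT IgG, 1 cell held 95.9% of the Col3a1 UMIs, and the part of this list in the group differences was not tested. No member passed the doublet score of 0.25, and 0, 0, 1 and 2 members held 3 or more UMIs of Epcam, Krt8, Krt18 and Krt19, against 12, 8, 6 and 7 Arg1-zero macrophages. Their part in the differences below was not tested, beyond the counts without these cells, which moved no count of calls by over 1.5 times.

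The 4 other marker genes of the population were chosen from these same cells, so their values are a description. Ccl24, which encodes the eosinophil-attracting chemokine eotaxin-2, stood at 1294, 1120, 522 and 868 CPM in the members and 104, 20.3, 3.62 and 127 CPM in Arg1-zero macrophages. Pf4, which encodes platelet factor 4, stood at 198, 790, 460 and 909 CPM in the members and 120, 79.8, 83.7 and 177 CPM in Arg1-zero macrophages. Msr1, a scavenger receptor, stood at 320, 394, 426 and 455 CPM in the members against 94.9, 109, 121 and 98.2 CPM. Ccl7, a monocyte-attracting chemokine, stood at 300, 419, 609 and 413 CPM in the members against 73.7, 22.6, 28.9 and 94.9 CPM. In every library each of the 4 genes was higher in the members than in the Arg1-zero macrophages, and the Pf4 values of KO anti-PD-1 were closest.

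The marker genes differed in how they were spread over the members. Msr1 was found in 71.9%, 82.0%, 89.5% and 86.7% of members, whereas Ccl24 was found in 57.8%, 41.0%, 38.9% and 41.8%, Pf4 in 26.6%, 42.6%, 28.4% and 44.9%, and Ccl7 in 21.9%, 21.3%, 34.7% and 29.6%. With each member thinned to 2000 UMIs, which left out 2, 5, 2 and 1 cells, Ccl24 was found in 43.5%, 28.6%, 22.6% and 34.0% and Msr1 in 48.4%, 50%, 64.5% and 47.4%. The 10% of members with most UMIs of a gene held 76.1% of the Ccl24 UMIs, 80.2% of Ccl7 and 77.7% of Pf4, but 33.5% of Arg1. A single cell held 27.7%, 52.7%, 21.0% and 10.9% of the Ccl24 UMIs of its library. Of the 318 members, 140 held Ccl24, 54 held Ccl24 with Pf4, 40 held Ccl24 with Ccl7, and 95 (29.9%) held none of these 3 chemokines. At full depth most members of each library thus held Msr1 beside Arg1, whereas after thinning 47.4% to 64.5% did. Most UMIs of each of the 3 chemokine genes were in a minority of the members.

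The comparison with Arg1-zero macrophages asked which genes differ between macrophages with and without Arg1 in the same lungs. Most hypoxia-response and monocyte genes tested were higher in the members, and most lipid-associated macrophage genes were lower. UMIs were summed per library and population and tested with edgeR's quasi-likelihood test with the library as a block, so that each library is its own pair. Of 7579 genes, 749 were higher (9.88%) and 634 lower (8.37%) at a Benjamini-Hochberg adjusted p under 0.05, and these shares are the background of every list below. The sign was the same in all 4 libraries for 716 of the higher and 600 of the lower genes. Without WT IgG, 471 genes were higher and 449 lower. Values below are CPM of the summed cells with the genes of the rule left out, and SD is that of the 4 library log2 ratios.

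Genes of hypoxia and glycolysis were higher as a group. Of 28 tested, 26 were higher and none lower, with a median log2 fold change of 1.17 against −0.01 over all genes. HIF-1 is a transcription factor that low oxygen stabilises, and it switches on glucose uptake, glycolysis and blood vessel growth. Among its classic targets, Egln3, an oxygen sensor that marks HIF for destruction, stood at 36.2, 42.9, 28.9 and 24.2 CPM in the members and 3.63, 4.17, 4.14 and 3.29 CPM in Arg1-zero macrophages (log2 fold change 3.05, SD 0.29, adjusted p = 1.32e-06). Ankrd37 stood at 77.9, 73.2, 35 and 50.6 CPM against 25.4, 11.3, 8.79 and 4.39 CPM (2.34, SD 0.81, adjusted p = 7.32e-06). Bnip3, a mitophagy receptor, stood at 175, 219, 108 and 195 CPM against 45.3, 33.4, 29.5 and 41.2 CPM (2.21, SD 0.38, adjusted p = 1.52e-08). Each of these 3 genes passed and was higher in the members in every library, as were 716 of all 7579 genes tested.

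The promoters of these genes are shown since HIF binds DNA at a short core, ACGTG. Each line gives 300 bases of the GRCm38.p6 mouse assembly from RefSeq's table, 250 before and 50 after the annotated start, and capitals mark ACGTG or its reverse complement CACGT on the strand of the gene. The windows lie at chr12:54203825-54204124 for Egln3, chr8:45999801-46000100 for Ankrd37 and chr7:138909457-138909756 for Bnip3, all on the minus strand, and at chrX:106186850-106187149 for Pgk1, on the plus strand.
Egln3: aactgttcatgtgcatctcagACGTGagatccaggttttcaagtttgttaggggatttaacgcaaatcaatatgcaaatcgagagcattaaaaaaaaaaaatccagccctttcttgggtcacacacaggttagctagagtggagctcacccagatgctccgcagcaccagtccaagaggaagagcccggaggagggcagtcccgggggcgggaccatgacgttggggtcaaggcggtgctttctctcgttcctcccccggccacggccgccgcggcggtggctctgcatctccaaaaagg
Ankrd37: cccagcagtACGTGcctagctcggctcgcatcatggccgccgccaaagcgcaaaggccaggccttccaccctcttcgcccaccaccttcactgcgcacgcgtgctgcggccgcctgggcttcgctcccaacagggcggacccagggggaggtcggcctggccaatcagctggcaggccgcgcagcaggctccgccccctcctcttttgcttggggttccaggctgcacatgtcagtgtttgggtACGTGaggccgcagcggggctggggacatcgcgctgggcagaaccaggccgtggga
Bnip3: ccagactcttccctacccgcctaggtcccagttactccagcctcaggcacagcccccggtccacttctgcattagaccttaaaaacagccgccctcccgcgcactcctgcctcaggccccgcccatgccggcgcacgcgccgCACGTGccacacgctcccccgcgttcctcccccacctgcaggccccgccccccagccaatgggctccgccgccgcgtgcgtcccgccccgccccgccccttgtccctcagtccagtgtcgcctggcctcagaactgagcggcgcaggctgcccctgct
Pgk1: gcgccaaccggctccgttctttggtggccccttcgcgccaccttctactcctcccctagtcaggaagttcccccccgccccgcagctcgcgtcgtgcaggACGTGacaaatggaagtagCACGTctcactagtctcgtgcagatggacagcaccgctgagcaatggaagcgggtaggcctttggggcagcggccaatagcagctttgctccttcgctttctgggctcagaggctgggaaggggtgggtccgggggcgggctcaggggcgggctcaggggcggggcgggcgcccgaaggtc
The Egln3 window held 1 match and the other 3 held 2 each. Those of Bnip3 overlap, since CACGTG reads the same on both strands. Among genes named below whose windows are not printed, a Vegfa window held 0 matches and another held 1. The Slc2a1 window held 1 and that of Slc16a3 held 2. Of the 26 listed hypoxia and glycolysis genes in the table, 19 (73.1%) had a match in at least 1 window, against 5886 of all 27025 genes (21.8%). The list holds classic HIF targets and the shares use no expression value, so they describe the list and not these cells. A match is a description of these letters and not a measured binding site. Arg1 and Ero1l had no window in the table.

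Glycolysis and oxygen-regulated signalling followed the same direction. Pgk1, a glycolytic kinase, stood at 774, 613, 663 and 971 CPM in the members and 342, 207, 207 and 224 CPM in Arg1-zero macrophages (1.65, SD 0.39, adjusted p = 5.87e-08). The glucose transporter gene Slc2a1 stood at 64.0, 73.2, 82.0 and 96.9 CPM against 29.0, 36.3, 49.6 and 31.8 CPM (1.12), and Slc16a3, which exports lactate, at 223, 219, 195 and 252 CPM against 44.7, 36.9, 67.7 and 35.7 CPM (2.27). Ldha, which makes lactate, had a log2 fold change of 1.28, the pyruvate dehydrogenase kinase Pdk1 one of 1.80 and the oxidative folding enzyme Ero1l one of 1.96. Hif1a itself stood at 278, 447, 364 and 395 CPM in the members and 141, 198, 205 and 171 CPM in Arg1-zero macrophages (1.05, SD 0.18, adjusted p = 1.56e-06). Vegfa, the growth factor of blood vessels, stood at 175, 255, 159 and 253 CPM against 50.2, 73.9, 69.3 and 69.1 CPM (1.66, SD 0.31, adjusted p = 1.81e-07). Each of these genes was higher in the members in every library. Hk1 (0.42) and Hmox1 (−0.12) did not pass, and Ndrg1 (1.03) passed although only WT anti-PD-1 and WT IgG were higher.

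Secreted matrix proteins, proteases and their inhibitors formed the other large group. Of 24 such genes 15 were higher and 6 lower, with a median of 0.90. Fn1, which encodes fibronectin, stood at 2935, 2462, 2425 and 2992 CPM in the members and 280, 250, 267 and 210 CPM in Arg1-zero macrophages (3.43, SD 0.28, adjusted p = 4.74e-12). Thbs1, which encodes the matrix protein thrombospondin-1, stood at 2334, 2205, 1679 and 2281 CPM against 292, 198, 242 and 278 CPM (3.08, SD 0.29, adjusted p = 5.82e-12). Both were higher in the members in every library. The proteoglycan gene Vcan stood at 145, 131, 85.6 and 146 CPM against 5.44, 8.34, 8.79 and 7.68 CPM (4.02, SD 0.59, adjusted p = 1.67e-09). Timp1, which blocks matrix metalloproteinases, was at 3.39 and Mmp9, a gelatinase, at 2.15. Mmp12, a macrophage elastase, went the other way, with 75.1, 247, 166 and 196 CPM in the members and 548, 1408, 432 and 499 CPM in Arg1-zero macrophages (−1.91, SD 0.77, adjusted p = 1.24e-06), as did Ctsk (−2.36) and Igf1 (−1.31).

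**Figure D2:**
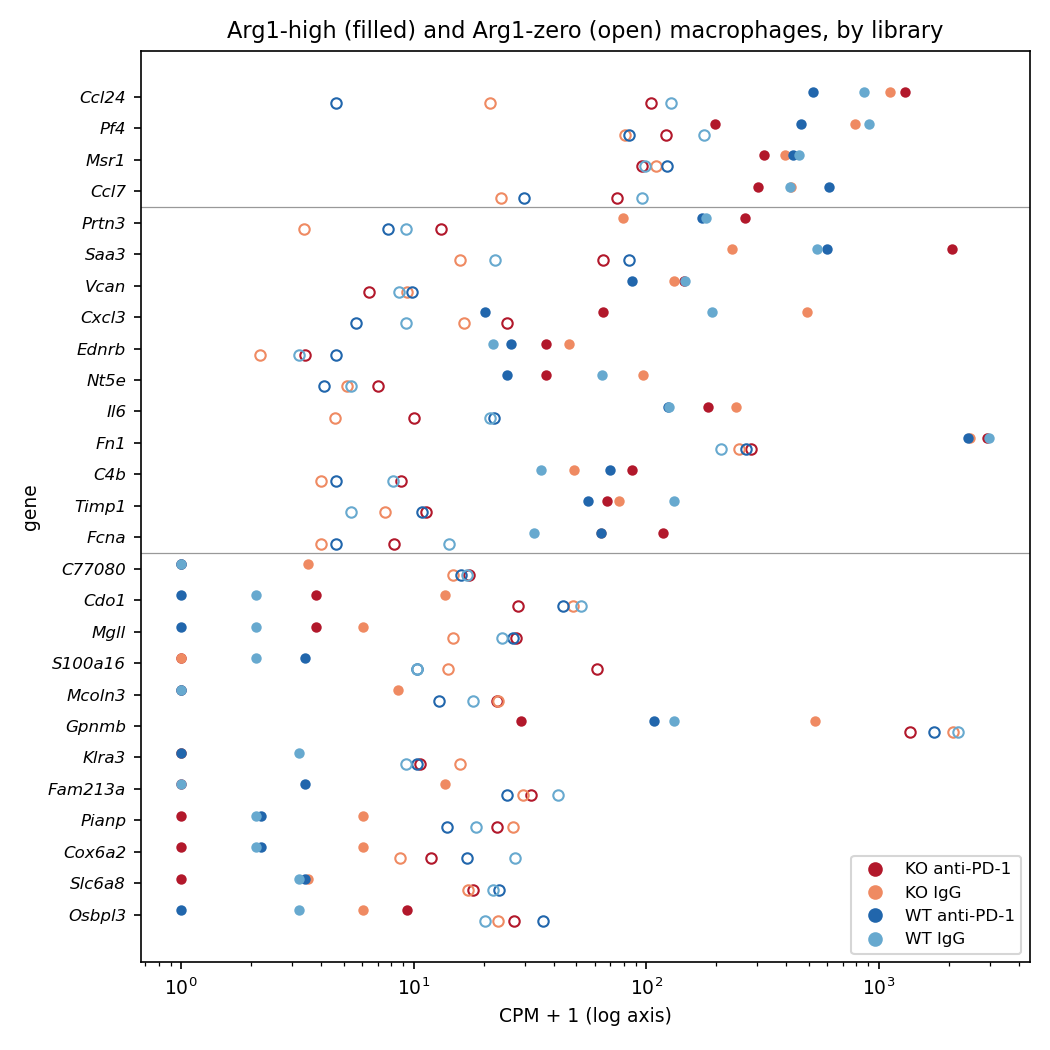
CPM (log axis, 1 added) of the 4 described markers and of genes named by rule as most higher and most lower; filled points are Arg1-high macrophages, open points Arg1-zero macrophages, 1 of each per library. Fn1 lies between 2425 and 2992 CPM in the members and between 210 and 280 CPM in Arg1-zero macrophages.

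Granule, acute-phase and cytokine genes were, beside Vcan, among those with the highest fold changes. Prtn3, which encodes proteinase 3, a serine protease of myeloid granules, stood at 264, 78.2, 174 and 179 CPM in the members and 12.1, 2.38, 6.72 and 8.23 CPM in Arg1-zero macrophages (4.57, SD 0.23, adjusted p = 1.37e-11). Saa3, an acute-phase protein, stood at 2065, 232, 599 and 541 CPM against 64.1, 14.9, 83.7 and 21.4 CPM (4.09, SD 0.95, adjusted p = 1.51e-08). Prtn3 and Saa3 were higher in the members in every library, although 75.7% of the Saa3 UMIs of the KO anti-PD-1 members were in 1 cell. Il6, the inflammatory cytokine, stood at 184, 242, 123 and 124 CPM against 9.06, 3.57, 21.2 and 20.3 CPM (3.51, SD 1.64, adjusted p = 8.28e-07). Il1b stood at 3545, 3179, 3681 and 4698 CPM against 1479, 1501, 1535 and 1569 CPM (1.30, SD 0.21, adjusted p = 1.32e-08). Nt5e, the ectoenzyme CD73 that makes adenosine, stood at 36.2, 95.9, 24.1 and 63.9 CPM against 6.04, 4.17, 3.10 and 4.39 CPM (3.58, SD 0.86, adjusted p = 2.97e-07). Also named by size were Cxcl3 (3.69), the endothelin receptor gene Ednrb (3.61), the complement genes C4b (3.41) and Fcna (3.22). Of 15 inflammatory genes 9 were higher and 1, Tnfaip3, lower. Of 19 suppressive ligand and cytokine genes 4 were higher, namely Il1rn, Vsir, Pilra and Nt5e, and 2 lower, Il18bp and Trem2.

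Chemokine genes went in both directions. Of 18 tested, 8 were higher and 4 lower. Ccl2, the main monocyte attractant, stood at 849, 588, 821 and 637 CPM in the members and 162, 35.1, 143 and 172 CPM in Arg1-zero macrophages (2.61, SD 0.94, adjusted p = 1.42e-07). Ccl6 stood at 7256, 5217, 3912 and 3921 CPM against 1531, 1550, 1287 and 1552 CPM (1.74), and Ccl9 at 1388, 997, 1123 and 1501 CPM against 335, 286, 281 and 317 CPM (2.03). Both are mouse CC chemokines, and each was more than 2-fold higher in the members of every library. Ccl8, another monocyte attractant, was lower, with 30.6, 0, 54.2 and 141 CPM in the members and 228, 35.1, 307 and 318 CPM in Arg1-zero macrophages (−1.99, SD 1.51, adjusted p = 1.65e-05). Cxcl16 (−0.76) and Ccl5 (−0.44) were lower, and Ccl17 (−1.83) was lower in 3 libraries and higher in KO anti-PD-1, where 84.9% of its UMIs came from 1 member. The interferon-induced T cell attractants Cxcl9 (−0.18) and Cxcl10 (0.94) did not pass.

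Genes of the lipid-associated macrophage list were mostly lower. Of 21 genes of the lipid-associated macrophage programme tested, 17 were lower and 3 higher, with a median of −1.22. Gpnmb, a glycoprotein of lysosome-rich macrophages, stood at 27.8, 530, 107 and 131 CPM in the members and 1364, 2087, 1737 and 2183 CPM in Arg1-zero macrophages (−3.58, SD 1.47, adjusted p = 3.04e-07). Fabp5, which carries fatty acids, stood at 217, 1650, 582 and 793 CPM against 3100, 3964, 3935 and 4201 CPM (−2.48, SD 1.06, adjusted p = 1.12e-06). Both were lower in the members in every library, and KO IgG was the highest of the members for both. The fatty acid receptor gene Cd36 stood at 5.56, 15.1, 9.64 and 19.8 CPM against 73.7, 121, 65.1 and 91.6 CPM (−2.65, SD 0.51, adjusted p = 1.54e-07), and Trem2, a lipid-sensing receptor, at 159, 336, 251 and 361 CPM against 478, 549, 569 and 577 CPM (−1.0, SD 0.43, adjusted p = 2.28e-05). Cd63 (−2.32), the protease gene Ctsd (−1.87) and Apoe (−0.93) were lower as well. Spp1, which encodes osteopontin, was an exception at 2240, 2674, 2528 and 2159 CPM against 1392, 2043, 1127 and 1139 CPM (0.80, SD 0.33, adjusted p = 1.86e-05), with Ctsl (0.39) and the cholesterol exporter Abca1 (0.87). The 10% of members with most Spp1 UMIs held 67.7% of them. Ferritin heavy chain, Fth1, stood at 7994, 16451, 10426 and 11657 CPM against 22474, 26006, 24789 and 22060 CPM (−1.07), and 7 of 15 iron and redox genes were lower with only the transferrin gene Trf higher (1.55). Among the genes most lower were Cdo1, a cysteine dioxygenase (−3.90), and Mgll, a lipase (−3.72), and C77080 (−4.91) with 1 UMI in the members against 108.

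**Figure D3:**
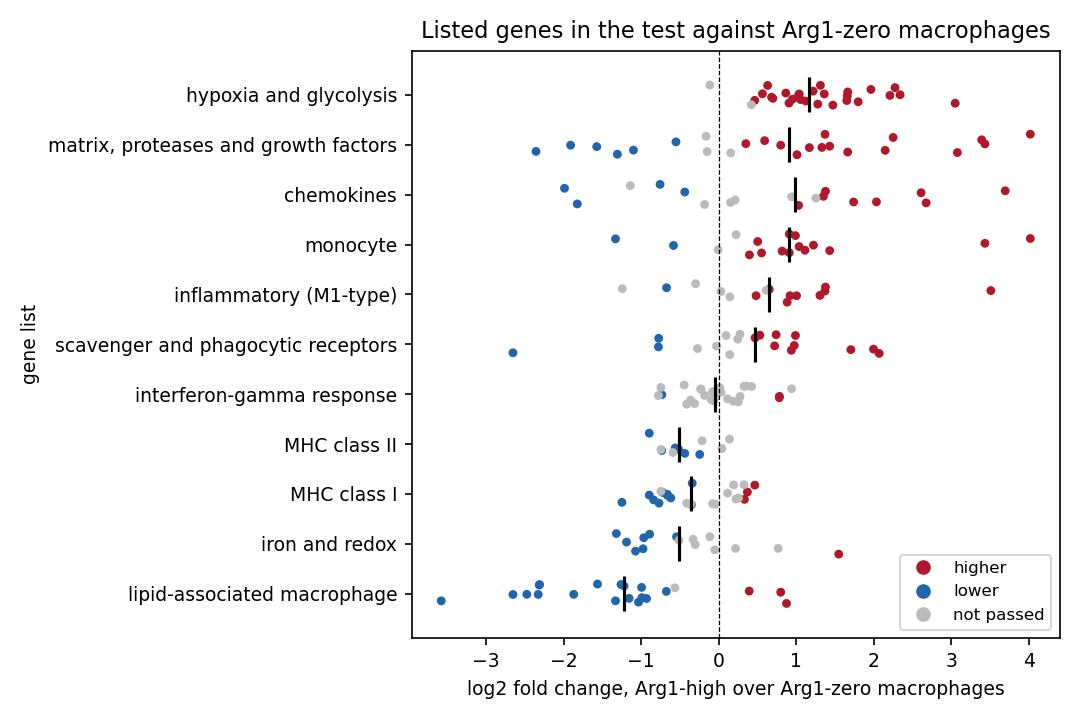
Log2 fold change of each tested gene of 11 lists, Arg1-high over Arg1-zero macrophages; colours mark genes higher, lower or not passing the test, and bars are medians. The hypoxia median lies at 1.17 and the lipid-associated macrophage median at −1.22, with 26 of 28 and 17 of 21 genes passing in those directions.

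Arginine metabolism was not shifted as a whole. Of 17 genes other than Arg1 itself, 4 were higher and 4 lower. Slc7a2, the arginine transporter CAT2, stood at 30.6, 101, 49.4 and 69.4 CPM in the members and 19.3, 19.1, 34.1 and 19.2 CPM in Arg1-zero macrophages (1.40, SD 0.90, adjusted p = 1.00e-03). Gatm (1.19), which uses arginine to make creatine, the creatine kinase Ckb and the spermine oxidase Smox were higher too. Lower were Arg2, the mitochondrial arginase (−1.18, adjusted p = 2.73e-02), Sat1 (−0.65), Slc3a2, and Ass1, which rebuilds arginine from citrulline, at 41.7, 83.3, 53.0 and 37.4 CPM against 76.8, 95.9, 166 and 101 CPM (−1.13). Of 12 alternative activation genes, 5 were higher and 2 lower. Mrc1, the mannose receptor CD206, stood at 128, 235, 230 and 260 CPM in the members and 89.4, 114, 99.2 and 133 CPM in Arg1-zero macrophages (0.97, SD 0.29, adjusted p = 1.32e-05). Tgm2, a transglutaminase, stood at 562, 389, 470 and 611 CPM against 82.8, 78.6, 152 and 152 CPM (2.15, SD 0.48, adjusted p = 2.56e-08). Il4ra, the interleukin-4 receptor chain, was at 0.79, and Mgl2, a lectin of alternatively activated macrophages, was lower at −1.08.

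Against all Arg1-zero macrophages, most monocyte genes were higher, and antigen presentation genes were more often lower than higher. Of 17 monocyte genes 13 were higher and 2 lower, Ly6c2 (−0.58) and Lgals3. Ccr2, the receptor for Ccl2 and Ccl7, stood at 428, 411, 469 and 467 CPM in the members and 205, 269, 242 and 238 CPM in Arg1-zero macrophages (0.91, adjusted p = 6.08e-06). Itgam, which encodes CD11b, stood at 462, 449, 510 and 441 CPM against 92.5, 120, 112 and 122 CPM (2.07, SD 0.22, adjusted p = 1.27e-09). The scavenger receptor list had 10 of 19 genes higher, among them the Fc receptor Fcgr4 (1.70) and Olr1 (1.99), and 3 lower, Cd36, Scarb2 and Cd93. None of 11 MHC class II genes was higher and 6 were lower, with H2-Aa at 4115, 3320, 5087 and 4449 CPM against 5900, 5533, 7515 and 5419 CPM (−0.52, SD 0.19, adjusted p = 1.08e-04). Of 23 MHC class I genes 10 were lower, including B2m (−0.66) and H2-D1 (−0.84), and 3 higher. Interferon-gamma genes did not differ as a group, with 2 of 26 higher (Gbp2 and Wars) and 1 lower (Ciita), and none of 21 proliferation genes passed in either direction. Ifitm3, a restriction factor of the type I interferon list, stood at 4435, 1441, 3826 and 2900 CPM against 844, 407, 829 and 540 CPM (2.23), and 6 of 21 genes of that list were higher and 1 lower.

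Against the Arg1-zero macrophages richest in lipid genes, those with at least 3 UMIs of Gpnmb and Trem2 together, the members differed in hypoxia and monocyte genes. These 432 cells are a subset of the Arg1-zero macrophages and the members are shared, so the results are not independent of those above. Of 6609 genes 971 were higher (14.7%) and 892 lower (13.5%). Hypoxia genes were higher in 25 of 28 and lower in 1 (median 1.44), lipid-associated genes lower in 16 of 19 and higher in 1 (−1.81), and monocyte genes higher in 14 of 17 and lower in 1. The count of lipid-associated genes is a description, since Gpnmb and Trem2 of that list chose the lipid-rich cells. The lower MHC class II level did not hold here, with 3 of 9 genes higher and 2 lower (median −0.02). MHC class I genes were higher in 7 of 23 and lower in 10 (−0.38). Ccr2 stood at 429, 412, 469 and 467 CPM in the members and 42.6, 101, 99.9 and 98.9 CPM in the lipid-rich cells (2.32, SD 0.59, adjusted p = 1.57e-08). Fn1 stood at 2936, 2464, 2426 and 2994 CPM against 148, 157, 160 and 193 CPM (3.97, SD 0.18, adjusted p = 1.80e-13), and Prtn3 at 5.37 and Vcan at 5.67 were the 2 named genes with the highest fold changes. Spp1 did not pass here (0.31, SD 0.50, adjusted p = 0.103), with 2240, 2677, 2529 and 2160 CPM in the members and 2197, 2979, 1396 and 1297 CPM. The separation was partial, since 8, 17, 32 and 55 members (12.5%, 27.9%, 33.7% and 56.1%) themselves held at least 3 UMIs of Gpnmb and Trem2. Median depth differed, at 8028, 10052, 12168 and 12035 UMIs in the lipid-rich cells.

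The members also differed from classical monocytes, the blood-borne precursors of many tissue macrophages, taken as cells with Ly6c2, Ccr2 and Lyz2 and almost no C1q (165, 101, 205 and 111 cells). The rule set C1q and Arg1 apart between these populations, and the Ly6c2, Ccr2 and Lyz2 used to choose monocytes were left out. Of 5810 genes 915 were higher (15.7%) and 849 lower (14.6%). Hypoxia genes were higher in 25 of 28 (median 1.69), lipid-associated genes higher in 16 of 19 and lower in 1 (1.84), MHC class II genes higher in 8 of 9 (2.15) and chemokines higher in 12 of 14 (1.83). Monocyte genes were lower in 12 of 15 and higher in 2 (−1.51). This count is a description, since Ly6c2 and Ccr2 of that list chose the monocytes. Type I interferon genes were lower in 13 of 19 (−0.81), and neutrophil genes in 6 of 7. Spp1 stood at 2255, 2720, 2555 and 2181 CPM in the members and 55.1, 79.9, 105 and 308 CPM in monocytes (4.36, adjusted p = 3.11e-08). Ltc4s, which makes the lipid mediator leukotriene C4, stood at 885, 370, 537 and 374 CPM against 16.4, 20.6, 9.08 and 22 CPM (5.16, adjusted p = 3.03e-10). Mertk stood at 39.2, 41.1, 35.3 and 43.4 CPM against 4.47, 2.28, 0.908 and 0 CPM (4.45). H2-Aa stood at 4143, 3377, 5142 and 4495 CPM against 779, 423, 1064 and 1086 CPM (2.49). Lower were the collagenase gene Mmp8, at 14, 18, 2.44 and 15.6 CPM against 253, 244, 178 and 204 CPM (−4.11, adjusted p = 6.70e-09), Plac8 (−3.12) and Chil3 (−3.06). Vcan, far higher than in Arg1-zero macrophages, was lower than in monocytes (−1.66), whereas Fn1 (1.28), Thbs1 (1.15), Il1b (1.32), Vegfa (2.87) and Ccl2 (1.37) were above both populations. For these genes the members did not sit between the other populations.

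Within the members, gene expression was compared between the upper and the lower tercile of cells by the share of Arg1 in their UMIs (21, 20, 31 and 32 cells in each tercile). The median cell held 35, 23.5, 54 and 76.5 Arg1 UMIs in the upper tercile and 6, 5.5, 6 and 8 in the lower, at median depths of 5363, 4462.5, 7697 and 7964 UMIs against 6004, 7179, 8755 and 10176.5. Of 2787 genes 37 were higher (1.33%) and 14 lower (0.502%). Thbs1 stood at 3127, 5065, 2402 and 3664 CPM in the upper tercile and 1309, 661, 931 and 923 CPM in the lower (1.88, adjusted p = 2.65e-03). Tgm2 stood at 818, 935, 708 and 960 CPM in the upper tercile against 340, 122, 195 and 272 CPM (1.92, adjusted p = 2.65e-03). Ero1l stood at 179, 291, 192 and 229 CPM against 51.8, 27.8, 42.9 and 97.7 CPM (1.93, adjusted p = 5.57e-03). These 3 genes were among 36 of the 2787 that passed and were higher in the upper tercile in every library. Saa3 (2.73), Il6 (2.20), Fcna (2.19), Prtn3 (1.92), Ccl2 (1.60), Slc7a2 (1.53), Bnip3 (1.51) and Fn1 (1.18) were higher in the upper tercile in all 4 libraries. Lower in the upper tercile were Mmp12, at 0, 134, 21.4 and 7.65 CPM against 88.7, 361, 327 and 509 CPM (−3.61, adjusted p = 3.32e-03), Isg15, at 59.6, 12.1, 60.5 and 38.2 CPM against 170, 122, 304 and 142 CPM (−2.08), and Cd63 (−2.08), Lipa (−1.93), a lysosomal lipase, and Lgals3 (−0.92), which encodes galectin-3. By list, 6 of 25 hypoxia genes were higher and none lower (median 0.75), 5 of 15 lipid-associated genes were lower and none higher (−0.91), and no MHC class II gene of 8 passed. The counts rested on single libraries, with 69 higher and 40 lower without KO anti-PD-1, 13 and 3 without KO IgG, 3 and 0 without WT anti-PD-1 and 11 and 4 without WT IgG, and with 5 and 2 without the library block. Beside the 0 genes that edgeR called lower without WT anti-PD-1, 237 genes had an unadjusted p under 0.05 in either direction.

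The described markers also tended to stand higher in the upper tercile, though not in every library. Ccl24 stood at 2155, 4919, 1004 and 1511 CPM in the upper tercile and 762, 22.2, 168 and 497 CPM in the lower, and Msr1 at 392, 571, 431 and 696 CPM against 185, 278, 347 and 260 CPM. Pf4 stood at 332, 1008, 335 and 1209 CPM in the upper tercile and 29.6, 328, 760 and 663 CPM in the lower, so that in WT anti-PD-1 it was lower in the upper tercile. Ccl7 stood at 239, 194, 580 and 688 CPM in the upper tercile and 22.2, 194, 469 and 290 CPM in the lower, level in KO IgG.

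The share of members was read next across the groups, to ask whether loss of Asf1a in the tumour or PD-1 blockade went with more or fewer of these cells. Members made up 1.13% of cells (exact Clopper-Pearson 95% interval 0.869 to 1.44) in KO anti-PD-1, 1.01% (0.776 to 1.30) in KO IgG, 1.51% (1.22 to 1.84) in WT anti-PD-1 and 1.71% (1.39 to 2.07) in WT IgG. As a share of all C1q macrophages they made up 18.7%, 20.3%, 30.1% and 33.2%. Under IgG the KO share of cells was 0.594 times the WT share (0.424 to 0.826) and the KO share of macrophages 0.612 times (0.437 to 0.851). Under anti-PD-1 the ratio of KO to WT was 0.746 (0.535 to 1.03) of cells and 0.621 (0.445 to 0.861) of macrophages. Anti-PD-1 against IgG gave 0.886 (0.661 to 1.19) of cells in WT and 1.11 (0.771 to 1.61) in KO, with intervals that include 1. Under these limits both KO libraries thus had lower shares than both WT libraries, and a difference with blockade was not detectable at these numbers of cells.

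That difference between KO and WT depended on the C1q limit. All cells with at least 3 Arg1 UMIs under the same exclusions, with no C1q minimum, numbered 105, 142, 120 and 138, or 1.85% (1.52 to 2.23), 2.36% (1.99 to 2.77), 1.91% (1.59 to 2.28) and 2.40% (2.02 to 2.83) of cells. The ratio of KO IgG to WT IgG was then 0.982 (0.771 to 1.25). Of these cells 61.0%, 43.0%, 79.2% and 71.0% reached 3 C1q UMIs, and 31, 67, 14 and 33 held none. The cells that missed the C1q limit had median depths of 4163, 3794, 6523 and 5847.5 UMIs, lower in the KO libraries as in all cells. Among cells with at least 1000 UMIs the ratio for members was 0.827 (0.589 to 1.15), with an interval that includes 1. Under anti-PD-1 members made up 1.81% of such cells in KO and 1.79% in WT, so the lower KO share of cells was not seen there. Among cells of this depth members made up 20.3% of C1q macrophages in KO IgG and 33.3% in WT IgG. For KO anti-PD-1 and WT anti-PD-1 these shares of macrophages were 18.9% and 30.4%. With each library thinned to the median depth of the shallowest before the rule was applied, members numbered 61 of 6023 cells (1.01%) in KO IgG and 93 of 5735 (1.62%) in WT IgG, a ratio of 0.625 (0.445 to 0.872).

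**Figure D4:**
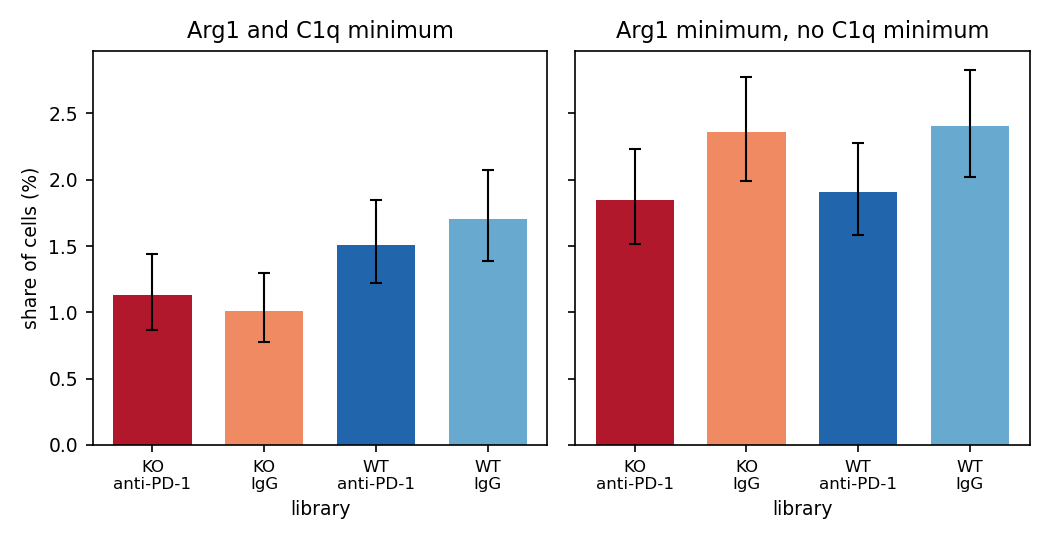
Share of cells (percent) that were Arg1-high macrophages, and that had at least 3 Arg1 UMIs with no C1q minimum, in each library with exact Clopper-Pearson 95% intervals. Members lie at 1.13% and 1.01% in the KO libraries and 1.51% and 1.71% in the WT libraries, whereas without the C1q minimum KO IgG (2.36%) and WT IgG (2.40%) lie together.

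Expression within the members was compared between libraries by ratios of CPM with exact conditional intervals for Poisson counts, and genes were counted past a size of 2-fold. KO IgG against WT IgG had 225 of 5547 genes higher (4.06%) and 260 lower (4.69%). WT anti-PD-1 against WT IgG had 206 of 6355 higher (3.24%) and 140 lower (2.20%). KO anti-PD-1 against KO IgG had 145 of 3971 higher (3.65%) and 312 lower (7.86%), and KO anti-PD-1 against WT anti-PD-1 had 108 of 5259 higher (2.05%) and 462 lower (8.78%). The median log2 ratios of all genes were 0.05, 0.04, −0.07 and −0.10 in these comparisons. Values below are log2 ratios unless CPM is named.

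Interferon-gamma response genes were higher under anti-PD-1 in both tumour genotypes. Interferon gamma, released by activated T and NK cells, turns on chemokines, GTPases of the GBP family and the immunoproteasome in macrophages. Summed over the list they stood at 3172 CPM in WT anti-PD-1 and 1730 CPM in WT IgG (0.87, interval 0.78 to 0.97), with 7 of 25 genes past 2-fold higher and none lower. In KO anti-PD-1 they stood at 2627 CPM and in KO IgG at 986 CPM (1.41, 1.24 to 1.59), with 11 of 17 past 2-fold higher and none lower. Arg1-zero macrophages of the same libraries gave 0.84 and 0.38 for these comparisons. In KO IgG against WT IgG the summed level was lower (−0.72, −0.88 to −0.56), with 6 of 19 genes past 2-fold lower. The ratio of KO anti-PD-1 to WT anti-PD-1 was −0.19 (−0.29 to −0.08), with 4 of 24 past 2-fold lower. With each cell thinned to 1000 UMIs the value of KO IgG against WT IgG was −0.40 (−0.92 to 0.10) and that of KO anti-PD-1 against KO IgG was 0.75.

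The T cell attractant Cxcl9 stood at 167 CPM in KO anti-PD-1, 12.6 in KO IgG, 354 in WT anti-PD-1 and 48.4 in WT IgG. Its log2 ratio was 2.87 (2.41 to 3.36) for anti-PD-1 in WT, from 20 against 11 cells, and 3.73 (2.42 to 5.40) in KO, from 10 cells against 1. Arg1-zero macrophages gave 3.01 for Cxcl9 in WT and −0.19 in KO. Gbp2, a GTPase, stood at 206, 40.4, 286 and 73.8 CPM, a ratio of 1.95 (1.56 to 2.37) in WT and 2.35 (1.56 to 3.23) in KO. The GTPase gene Ifi47 was at 1.65 and 2.95, the nucleic acid sensor Zbp1 at 1.16 and 1.69, and the peptide transporter Tap1 at 1.02 and 1.59. The immunoproteasome genes Psmb8 (0.61 and 0.92) and Psmb10 (0.57 and 1.19) were higher with smaller ratios. Each was highest in an anti-PD-1 library. Cd274, the ligand of PD-1, was at 0.19 in WT and −0.05 in KO. Of 3959 genes measured in both of these comparisons, which share no library, 53 were past 2-fold higher in WT and 143 in KO. Past 2-fold higher in both were 16 genes, 30.2% of the 53 and 11.2% of the 143. They were Ifi211, Ifi203, Ifi205, Slc2a6, Zbp1, Gbp2, Cxcl9, Plac8, Acads, Nkg7, Acod1, Ifi47, Wfdc21, Rtp4, Tap1 and AW112010. Of the same 3959 genes, 29 were past 2-fold lower in WT and 308 in KO. The 8 lower in both (27.6% of the 29 and 2.60% of the 308) were Gstm1, Atp6v0d2, Tnfrsf9, Cxcl3, Ear2, Nt5e, F13a1 and Mxi1.

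**Figure D5:**
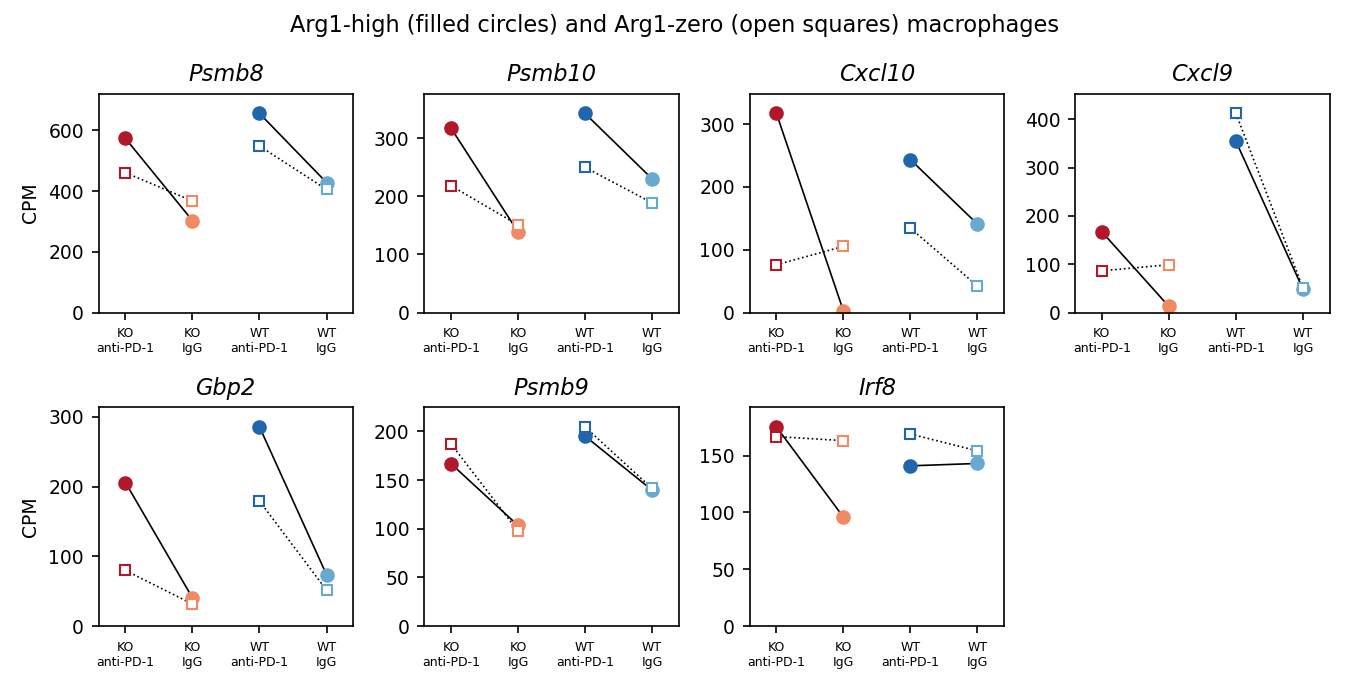
CPM of the 7 interferon-gamma list genes with most UMIs in the members, by library; filled circles are Arg1-high macrophages and open squares Arg1-zero macrophages, 1 summed value per library. Cxcl9 in the members lies at 167 and 354 CPM in the anti-PD-1 libraries and at 12.6 and 48.4 CPM in the IgG libraries.

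Type I interferon genes, which answer to viral-type signals and share many members with the interferon-gamma response, had a similar order. Their summed ratio was 0.54 (0.47 to 0.60) for anti-PD-1 in WT and 1.49 (1.37 to 1.61) in KO, and −0.94 (−1.05 to −0.83) for KO IgG against WT IgG. Ifitm3, the most counted of them, stood at 4435 CPM in KO anti-PD-1, 1441 in KO IgG, 3826 in WT anti-PD-1 and 2900 in WT IgG. KO IgG was lower than the other 3 libraries. MHC class I genes moved by 0.38 in WT and 0.25 in KO under anti-PD-1, and MHC class II genes by 0.15 and 0.07.

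The other genes that set the groups apart were fewer and often rested on few cells. In KO IgG against WT IgG, Chil3, a chitinase-like protein of lung macrophages, was 6.42-fold higher (714 and 111 CPM, from 38 and 35 cells) and Gpnmb 4.04-fold higher (530 and 131 CPM, from 12 and 16 cells). Ccl8 had 0 UMIs in KO IgG and 128 in WT IgG, at least 18.6-fold lower against a floor of 3 counts, but 59.4% of the WT IgG count came from 1 cell. Arg1-zero macrophages gave log2 ratios of 1.89 for Chil3 (2.68 in the members), −0.06 for Gpnmb (2.02 in the members) and −3.18 for Ccl8. In WT anti-PD-1 against WT IgG, Slamf8 was 4.84-fold higher (26 and 11 cells), and F13a1, which encodes coagulation factor XIII, 3.73-fold lower (23 and 37 cells). On the log2 scale these were 2.27 and −1.90 in the members, and 0.76 and −0.82 in Arg1-zero macrophages. In KO anti-PD-1 against KO IgG, Plac8 was 6.62-fold higher (53 and 26 cells) and Ccl5 6.07-fold higher (39 and 12 cells). On the log2 scale these were 2.73 and 2.60 in the members, and 2.17 and 2.42 in Arg1-zero macrophages of the same libraries. Gpnmb stood at 27.8 CPM in KO anti-PD-1 and 530 CPM in KO IgG (19.0-fold lower, from 9 and 12 cells), and Fabp5 was 7.60-fold lower (28 and 29 cells). The top cell of each gene held 35.7% of the Gpnmb UMIs and 30.9% of the Fabp5 UMIs of KO IgG. In this comparison 11 of 21 lipid-associated genes were past 2-fold lower and none higher (summed ratio −0.69, −0.74 to −0.65). Atp6v0d2, a proton pump subunit, had 0 UMIs in KO anti-PD-1 and 55, from 7 cells, in KO IgG, at least 16.6-fold lower. It belongs to the alveolar macrophage list, of which 3 genes were measured in KO IgG against WT IgG, all past 2-fold higher. Their summed log2 ratio was 1.88 (1.48 to 2.29), and the part of this list in these values was not tested. Arg1-zero macrophages gave log2 ratios of −0.61 for Gpnmb, −0.35 for Fabp5 and −0.61 for Atp6v0d2 in KO anti-PD-1 against KO IgG. In KO anti-PD-1 against WT anti-PD-1, Chil3 was 17.6-fold higher (1636 and 92.8 CPM, from 41 and 34 cells) and G0s2 10.8-fold higher (28 and 19 cells). On the log2 scale these were 4.14 and 3.43 in the members, and 0.95 and 0.53 in Arg1-zero macrophages. The neutrophil list was 1.09 (0.86 to 1.32) and 1.03 (0.85 to 1.21) higher in KO anti-PD-1 against KO IgG and against WT anti-PD-1 on the log2 scale, and its part in these values was not tested. Scgb1a1, a secretory gene of airway epithelium, had 51 UMIs in 33 members of KO anti-PD-1 and 3 UMIs in 2 members of KO IgG (log2 ratio 4.23, 2.60 to 6.55). Gzma, a granule protease gene of NK cells, had 25 UMIs in 9 members of KO anti-PD-1 and 3 UMIs in 3 members of KO IgG (3.20, 1.49 to 5.57), and 64% of the KO anti-PD-1 count came from 1 cell. The part of these markers in the values was not tested either.

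Hypoxia genes and the markers of the population were also compared between groups. The summed hypoxia ratio was −0.40 (−0.45 to −0.35) for KO IgG against WT IgG, −0.37 (−0.41 to −0.34) for WT anti-PD-1 against WT IgG, 0.17 (0.11 to 0.23) for KO anti-PD-1 against KO IgG and 0.14 (0.09 to 0.19) for KO anti-PD-1 against WT anti-PD-1. WT IgG, whose members also held most Arg1 per cell, was the highest for this list. With no C1q minimum it was −0.20 for KO IgG against WT IgG and 0.02 for KO anti-PD-1 against KO IgG. Arg1 itself stood at 3656 CPM in KO anti-PD-1, 3060 in KO IgG, 3307 in WT anti-PD-1 and 4707 in WT IgG, a description since it chose the members. Ccl24 was at 0.37 for KO IgG against WT IgG, −0.73 for WT anti-PD-1 against WT IgG, 0.21 for KO anti-PD-1 against KO IgG and 1.31 for KO anti-PD-1 against WT anti-PD-1. Pf4 was at −0.20, −0.98, −2.0 and −1.22 in these comparisons and Msr1 at −0.21, −0.10, −0.30 and −0.41. The lipid-associated list was at 0.18 (0.14 to 0.21) for KO IgG against WT IgG, but at −0.21 with the CPM of each cell averaged and also with each cell thinned to 1000 UMIs.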

How the data were processed

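The deposited values were UMI counts, 1 gene-by-cell matrix for each library. Per the file headers they came from Cell Ranger 3.0.0, and per the labels' protocols the kit was version 2 of the 10x Genomics 3′ chemistry. The submitters' processing notes name bcl2fastq, Cell Ranger and the human build hg19. Since each of the 31053 gene IDs is a mouse Ensembl ID, the build behind the counts is not established. The deposited barcode list held 6074 entries, as many as WT IgG has cells, so cells shared between libraries were looked for by identical count profiles. The authors had already limited the matrices to barcodes with at least 500 UMIs, judged from the lowest total in each library.

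Cells with under 200 detected genes (19, 15, 13 and 9 cells in the order KO anti-PD-1, KO IgG, WT anti-PD-1 and WT IgG) or over 10% mitochondrial UMIs (398, 324, 385 and 320) were removed, which left 5677, 6023, 6285 and 5745. No cell was removed as a doublet in the main results, and removal by a Scrublet score over 0.25 (scanpy 1.11.5, expected rate 0.05) was an alternative. The members, the lists of genes and the marker genes were chosen with earlier results of these data known. The lists serve to describe and carry no test of their own.

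Populations were compared on UMIs summed per library and population (8 sums) with edgeR 4.0.16 in R 4.3.3, using TMM factors, quasi-likelihood tests, the library as a block and Benjamini-Hochberg adjustment over all genes with at least 10 UMIs in at least 4 sums. The pairing comes from the design, since both populations of a pair are cells of the same library. Genes of the rules were left out of tests and totals. Genes were named by size from those with an adjusted p under 0.05, at least 40 UMIs in the higher population and 1 direction in every library, 12 in each direction, and 6 in each direction for ratios between libraries, beside the listed genes and markers. A few genes that met these rules are not reported here. Genes named in the text outside these rules were chosen after their values were seen. Between libraries, CPM ratios were given for genes with at least 20 UMIs over both libraries, with exact conditional 95% Poisson intervals (scipy 1.17.1). The procedures were tested on simulated data. The alternatives were DESeq2 1.42.0, other scalings, filters, cell limits, thinning of cells or libraries, no library block and each library left out.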

Additional observations from a re-analysis of the deposited data

Results flagged for a closer look

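In the members, 10 of 31 summed lists had ratios of opposite sign in 13 pairs of comparisons that share no library, each with an interval on its own side of 0. The differences between the comparisons were not tested, and with 1 library per group they could not be. Values are log2 ratios with 95% intervals for counting error.

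Hypoxia and glycolysis genes stood at 0.17 (0.11 to 0.23) in KO anti-PD-1 against KO IgG and −0.37 (−0.41 to −0.34) in WT anti-PD-1 against WT IgG. The 0.17 was 0.02 with no C1q minimum. They stood at 0.14 (0.09 to 0.19) in KO anti-PD-1 against WT anti-PD-1 and −0.40 (−0.45 to −0.35) in KO IgG against WT IgG. Lipid-associated macrophage genes stood at −0.22 (−0.26 to −0.18) in KO anti-PD-1 against WT anti-PD-1 and 0.18 (0.14 to 0.21) in KO IgG against WT IgG. That 0.18 was −0.21 as a mean over cells and also with each cell thinned to 1000 UMIs, so the sign was then the same in both comparisons. Alternative activation genes stood at 0.47 (0.39 to 0.55) in KO anti-PD-1 against KO IgG and −0.36 (−0.42 to −0.29) in WT anti-PD-1 against WT IgG. Chemokine genes stood at 0.15 (0.10 to 0.21) in KO anti-PD-1 against KO IgG and −0.05 (−0.09 to −0.02) in WT anti-PD-1 against WT IgG. Monocyte genes stood at 0.31 (0.26 to 0.37) in KO anti-PD-1 against KO IgG and −0.09 (−0.13 to −0.06) in WT anti-PD-1 against WT IgG. They stood at 0.30 (0.25 to 0.35) in KO anti-PD-1 against WT anti-PD-1 and −0.11 (−0.15 to −0.06) in KO IgG against WT IgG.

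Pan-macrophage genes outside the rule stood at −0.45 (−0.51 to −0.40) in KO anti-PD-1 against WT anti-PD-1 and 0.55 (0.51 to 0.59) in KO IgG against WT IgG. In the same comparisons iron and redox genes stood at −0.15 (−0.19 to −0.11) and 0.37 (0.34 to 0.40), and immediate-early and heat shock genes at −0.23 (−0.29 to −0.17) and 0.10 (0.05 to 0.16). These sums follow the most counted genes, and Lyz2 held most of the pan-macrophage sum. In KO IgG against WT IgG the median over single genes was −0.05 for the 8 pan-macrophage genes measured. It was −0.01 for the 14 iron and redox genes, and no gene of either list was past 2-fold there. Arginine and polyamine genes other than Arg1 stood at −0.14 (−0.27 to −0.01) in KO anti-PD-1 against KO IgG and 0.09 (0.01 to 0.18) in WT anti-PD-1 against WT IgG. Alveolar and airway epithelium genes, with 1 to 3 of 9 measured in each comparison, stood at 4.23 (2.60 to 6.55) in KO anti-PD-1 against KO IgG and −1.38 (−1.95 to −0.83) in WT anti-PD-1 against WT IgG. They stood at 2.63 (1.85 to 3.47) in KO anti-PD-1 against WT anti-PD-1 and −3.82 (−6.12 to −2.23) in KO IgG against WT IgG.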

How the results depend on the processing

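The direction of the 24 genes named by size against Arg1-zero macrophages held under the alternatives that could be run for it, and the counts of calls moved with depth and tool. DESeq2 called 450 higher and 351 lower against Arg1-zero macrophages, 496 and 433 against monocytes, 525 and 472 against lipid-rich macrophages and 23 and 9 between terciles. With each cell thinned to 1000 UMIs these were 174 and 164, 232 and 230, 207 and 212, and 7 and 2, and 8 monocyte genes were higher against Arg1-zero macrophages. Without the replicate block (the library) 530 and 475 were called against Arg1-zero macrophages and 5 and 2 between terciles, and with at least 1 UMI in any sum 86 and 83 between terciles. Leaving out each library in turn gave 471 to 630 higher and 449 to 588 lower against Arg1-zero macrophages, 649 to 801 and 588 to 794 against monocytes, 654 to 877 and 623 to 819 against lipid-rich macrophages, and 3 to 69 and 0 to 40 between terciles. The share ratio of KO IgG to WT IgG was 0.827 with at least 1000 UMIs per cell and 0.982 with no C1q minimum, an alternative chosen after seeing the data. Genes past 2-fold between libraries fell to 42 higher and 38 lower (KO IgG against WT IgG), 54 and 28 (WT anti-PD-1 against WT IgG), 39 and 37 (KO anti-PD-1 against KO IgG) and 36 and 66 (KO anti-PD-1 against WT anti-PD-1) with cells thinned to 1000 UMIs. With at least 50 UMIs they were 47 and 51, 44 and 25, 35 and 80, and 32 and 122. With libraries thinned by 1 fraction, also added later, 153 were lower in KO IgG against WT IgG. Summed interferon-gamma genes were −0.92 as a mean over cells and −0.40 thinned in KO IgG against WT IgG, 0.69 thinned and 0.98 with no C1q minimum in WT anti-PD-1 against WT IgG, 1.60 as a mean over cells and 0.75 thinned in KO anti-PD-1 against KO IgG, and −0.34 with no C1q minimum in KO anti-PD-1 against WT anti-PD-1. The lipid-associated list in KO IgG against WT IgG turned to −0.21 both as a mean over cells and thinned. Thinning leaves fewer UMIs and cells, and a higher minimum leaves fewer genes; the cause of the other shifts was not tested. The precision is set by 61 to 98 members per library.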
